A study of Mus musculus with 8 samples.

Results

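The cells of the Kmt2d+/βgeo cultures taken 2 days after growth factors were removed were compared with those of the undifferentiated Kmt2d+/βgeo cultures, called day 0. The cells were chosen by library, 4900 at day 2 and 4331 at day 0, which together are 9231 of the 30408 cells of the series. All of them are mouse hippocampal neural stem and progenitor cells (NPCs) from the dentate gyrus of embryos, embryonic day 18 in the labels, whose mothers were C57BL/6J females and whose fathers carried the Kmt2d+/βgeo allele Mll2Gt(RRt024)Byg. The study's methods give an earlier embryonic day than the labels, and the disagreement could not be settled here. This gene trap allele disrupts 1 copy of Kmt2d, which encodes a histone H3 lysine 4 methyltransferase, and the mice are a model of Kabuki syndrome. At day 0 the cells grew in Neurobasal medium with EGF and FGF2, and at day 2 both factors had been absent for 2 days to start differentiation. Day 4 and day 8 libraries of the same genotype, and wild-type libraries of all 4 days from littermate embryos whose label names C57BL/6J, complete the 8 libraries.

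Each group is 1 library made with 10x Chromium 3′ tags, so cells, which share a culture and a library, were not treated as replicates and no test between days could be run within this genotype. The day of collection cannot be told apart from the culture, the animals in it or the library. RNA molecules were counted by their unique molecular identifiers (UMIs), and the estimated count had a median of 23219 per cell at day 0 and 16273 at day 2. Over the 9140 genes of the matrix these medians were 11230 and 7566. The libraries shared 8 cell barcodes. The Kmt2d+/βgeo day 4 library was near-identical to the wild-type day 4 library in the genes plotted here, so its label is in doubt. Its values appear only in a plot and in this paragraph. The likeness did not hold for every gene. At day 4 Rps29 was at 8.88 in Kmt2d+/βgeo and 15.3 in wild type, Rpl38 at 7.66 and 13.2, and Atp5k at 2.34 and 3.81. The longest transcript of each has at most 700 nucleotides, a class described below. Luzp2, a gene far higher in the other Kmt2d+/βgeo libraries than in wild type, was at 0.0502 and 0.0422 at day 4. At day 8 Luzp2 was at 2.62 in Kmt2d+/βgeo and 0.0575 in wild type.

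Neural stem cells in culture divide as long as EGF and FGF2 act on their receptors, which keep the MAP kinase and PI3 kinase pathways active and hold back the FOXO transcription factors. Removal of these factors is the standard way to let such cells leave the cell cycle and differentiate into neurons, astrocytes or oligodendrocytes. Astrocytes make and secrete apolipoprotein E, take up glutamate and potassium, and supply lipid to neurons.

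Levels are mean normalised counts per cell, obtained by undoing the authors' log2 transform, and they sum to 8707.1 in every cell. A gene was compared where its mean reached 0.1 at day 0 or day 2. It was called higher or lower where the log2 ratio of the means, day 2 over day 0, was at least 1 in size. Of 7502 genes compared, 802 (10.7%) were higher at day 2 and 506 (6.74%) were lower. The median log2 ratio over all genes compared was 0.05. The largest rise in level was that of Apoe, from 14.1 to 209.7 normalised counts, and the largest fall was that of Rpl41, a ribosomal protein gene, from 109.5 to 40.4. The longest Rpl41 transcript has 582 nucleotides, in a short class described below. Its log2 ratio was -1.44, against -0.62 in wild type. With the difference of mean log2 values in place of the ratio, which mutes genes of low level, 47 genes were past the threshold upward and 53 downward, so that the split no longer favoured higher genes.

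**Figure D1:**
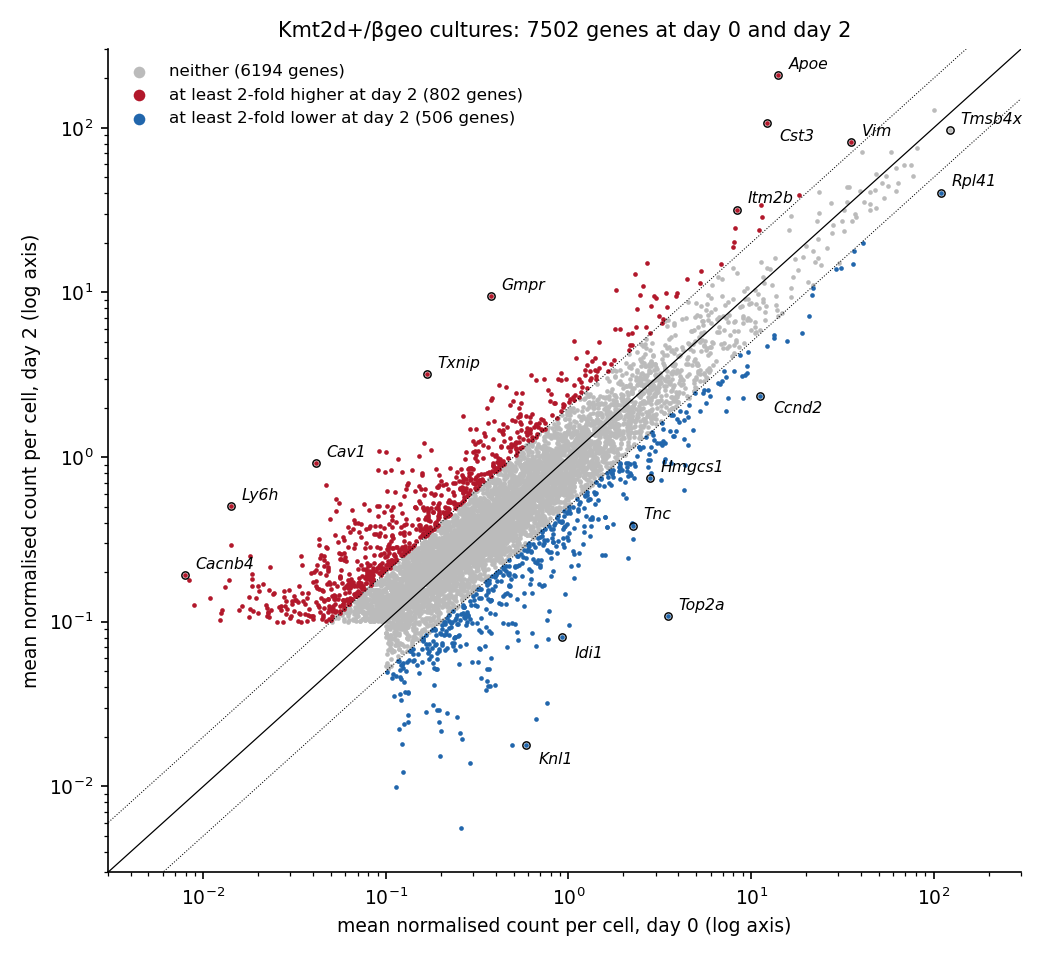
Mean normalised count per cell at day 0 (horizontal, log axis) and day 2 (vertical, log axis) for the 7502 genes compared, 1 point per gene. The solid line marks equal levels and the dotted lines 2-fold differences, with 802 genes above the upper line, Apoe and Gmpr among them, and 506 below the lower line, Top2a and Idi1 among them.

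The share of cells with at least 1 UMI of a gene was compared after each cell had been thinned to 3000 UMIs, which kept 4305 of the 4331 day 0 cells and 4900 of the 4900 day 2 cells. Among 9140 genes, this share rose by at least 10 percentage points for 544 (5.95%) and fell by as much for 555 (6.07%). The 5 largest rises were those of Gmpr, Txnip, Cryab, Abca1 and Tmem47. Gmpr, which encodes guanosine monophosphate reductase, had a UMI in 11.5% of cells at day 0 and in 78.7% at day 2, a difference of 67.2 points (95% Newcombe interval 65.7 to 68.7). Cryab, a small heat shock protein gene, went from 46.1% to 93.8% of cells, and Tmem47, which encodes a membrane protein, from 29.3% to 74.9%. The 5 largest falls were those of Ccnd2, Hnrnpab, Nucks1, Hnrnpa3 and Akap12. Ccnd2, the gene of cyclin D2, had a UMI in 87.8% of cells at day 0 and in 41.8% at day 2. Hnrnpab and Hnrnpa3, which encode RNA-binding proteins, went from 76.7% to 32.0% and from 89.7% to 46.4%. Intervals throughout cover counting error only, and a UMI in a cell can also come from free RNA in its droplet, whose part was not tested.

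The labelled cell type was checked against its markers. Fabp7, Vim and Slc1a3, which mark radial glia, had a UMI in 99.1%, 99.9% and 87.5% of thinned day 0 cells, and Olig2 and Sox9, transcription factors of glial progenitors, in 71.1% and 38.7%. Some other members of the progenitor list were in fewer day 0 cells. Tnc had a UMI in 47.3%, Hopx in 11.2%, Notch2 in 8.15%, Pax6 in 6.04% and Msi1 in 4.55%. Sox2, Nes and Hes5 were not analysed here. Of the marker lists for cells that could stray into such cultures, the list for microglia and macrophages had 1 of its 18 genes in the matrix. The fibroblast list had 2 of 16, both between the thresholds, the ependymal list 1 of 12, below the level needed, and the endothelial list 0 of 16. The matrix also lacked most genes written in the progenitor and mitosis lists, holding 22 of 50 and 32 of 102. Absence from it therefore cannot show whether stray cells were present, and all list counts here cover only members in the matrix. Kmt2d itself was at 0.193 at day 0 and 0.171 at day 2, against 0.157 and 0.197 in wild type. The labels and methods do not say whether its 3′ tags lie in the part that the trap removes, so these levels check no label. Luzp2, a gene that sets the Kmt2d+/βgeo day 0 and day 2 libraries apart from wild type, was at 0.287 and 1.48 in Kmt2d+/βgeo and at 0.00824 and 0.0305 in wild type.

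The genes of cell division were lower at day 2. Of 35 genes of DNA replication and S phase, 27 were lower and 0 higher, with a median log2 ratio of -1.67, and of 32 genes of mitosis and the G2/M phase, 25 were lower and 0 higher, with a median of -2.07. Over all genes compared, 6.74% were lower and the median was 0.05. Top2a (ENSMUSG00000020914, chromosome 11 from 98992943 to 99024189 on GRCm38), the gene of DNA topoisomerase II alpha, was at 3.5 at day 0 and 0.108 at day 2. A UMI of Top2a was present in 37.6% of thinned day 0 cells (95% Clopper-Pearson interval 36.1 to 39.1) and in 1.94% of day 2 cells (1.57 to 2.36). Knl1, which encodes a scaffold of the kinetochore, was at 0.588 and 0.0177, the lowest ratio of any gene with a mean of at least 0.5 in either library (log2 ratio -5.05, 95% interval from pooled UMIs -5.07 to -4.53).

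Among the S phase genes, Hells, which encodes a chromatin remodeller of replicating DNA, was at 0.491 at day 0 and 0.0179 at day 2. Atad2, which encodes a chromatin ATPase, was at 0.772 and 0.0791. Mcm6, a subunit of the replicative helicase, was at 0.803 and 0.189. In the mitosis list, Kif11 (a spindle motor) fell from 0.668 to 0.0255 and Nusap1 (a spindle protein) from 0.759 to 0.0321. The condensin genes Smc2 and Smc4 were at 2.26 and 2.00 at day 0 and at 0.318 and 0.595 at day 2. A few members stayed between the thresholds: Hmgb1, a chromatin protein gene that is high in most cells, was at 13.95 and 7.16.

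The 2 lists together took a median of 0.901% of a cell's normalised counts at day 0 and 0.420% at day 2. At day 0 the middle 80% of cells ranged from 0.432% to 2.09%, and at day 2 from 0.312% to 0.541%. The 95th percentile at day 2 was 0.586%, and 69.7% of day 0 cells lay above it. Next, only the 1313 day 0 cells at or below this value were kept, and the genes of the 2 lists were left out. Of 7386 genes compared, 530 were then higher at day 2 and 294 lower. Counts of other lists against these limited day 0 cells are to be read beside these, not beside the 10.7% and 6.74%. Of the 454 lower genes outside the 2 lists, 258 were still lower in that comparison, and of the 802 higher genes 501 were still higher. Fewer dividing cells and less RNA of these genes in each cell cannot be told apart by these means and shares.

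The promoters of these genes were examined because so many of them fell together. RefSeq promoters (GRCm38.p6, 250 bases before to 50 after the start site) were matched by symbol to 7250 of the 9140 matrix genes and to 6047 of the 7502 compared. Where a gene had several, the one nearest to the deposited gene's start was used. The 4 forms of the E2F site that were searched, on both strands, were TTTCCCGC, TTTCGCGC, TTTGCCGC and TTTGGCGC, and the second motif was TTTGAA, the cell cycle homology region (CHR), which none of these forms contains. An E2F form was in 10 of 25 S phase promoters (40.0%), in 4 of 30 mitosis promoters (13.3%) and in 4.35% of all promoters of genes compared. The CHR was in 4 of 25 S phase promoters (16.0%), in 15 of 30 mitosis promoters (50%) and in 10.9% of all. The promoter of the S phase gene with the lowest ratio among those with an E2F form, Hells (chr19:38930740-38931039, plus strand), and that of the mitosis gene with the lowest ratio among those with a CHR, Knl1 (chr2:119046869-119047168, plus strand), are shown 5′ to 3′ with the match in capitals. In Hells the match began 62 bases before the start site, and in Knl1 31 bases after it.
Hells: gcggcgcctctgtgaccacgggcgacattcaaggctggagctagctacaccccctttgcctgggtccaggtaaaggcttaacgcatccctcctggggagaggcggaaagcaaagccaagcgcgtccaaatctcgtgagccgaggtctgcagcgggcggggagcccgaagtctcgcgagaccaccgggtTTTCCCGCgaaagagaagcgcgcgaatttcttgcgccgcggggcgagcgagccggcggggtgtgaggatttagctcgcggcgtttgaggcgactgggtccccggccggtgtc
Knl1: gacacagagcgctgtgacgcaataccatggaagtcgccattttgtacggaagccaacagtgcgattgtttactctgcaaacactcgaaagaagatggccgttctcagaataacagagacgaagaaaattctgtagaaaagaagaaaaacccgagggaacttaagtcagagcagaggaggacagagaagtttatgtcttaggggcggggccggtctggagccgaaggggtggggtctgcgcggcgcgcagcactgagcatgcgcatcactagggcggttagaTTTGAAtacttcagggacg

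A match of letters is a description and no evidence of binding. The log2 ratio was -4.77 for Hells and -5.05 for Knl1.

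Brakes of the cell cycle did not move as 1 group. Of 17 genes compared, 2 (11.8%) were higher, Cables1 and the retinoblastoma gene Rb1, and 3 (17.6%) were lower, against 10.7% and 6.74% of all genes. Cdkn1a, which encodes the CDK inhibitor p21, was lower, at 2.77 at day 0 and 1.05 at day 2. Rbl1, the gene of the retinoblastoma relative p107, was at 0.126 and 0.024. Against limited day 0 cells the log2 ratio of Rbl1 was -0.19 and that of Rb1 0.97, both between the thresholds. Btg3, an antiproliferative gene, was at 0.221 and 0.0916. Cdkn1b, the gene of the CDK inhibitor p27, was at 0.599 and 0.876, under the threshold.

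Several receptor genes for the factors that had been removed were just past the threshold for higher genes. The list also held ligands and receptors for other factors. Of its 12 genes compared, 7 were higher and 1 lower, with a median log2 ratio of 1.02, while 10.7% of all genes were higher. Egfr, the EGF receptor gene, was at 1.01 at day 0 and 2.25 at day 2. Fgfr1, a receptor for FGF2, was at 1.07 and 1.88, under the threshold. Erbb4, a receptor for neuregulins, was at 0.167 and 0.489, and Fgfr2 and Fgfr3 at 0.0946 and 0.189 and then at 0.192 and 0.383. The 2 highest ratios of the list were not of EGF or FGF receptor genes. Ntrk2, the receptor gene for brain-derived neurotrophic factor, went from 0.551 to 2.12, and Fgf12 from 0.196 to 0.672. The member that was lower was the ligand gene Fgf1, at 0.362 and 0.138. With day 0 cells limited by the share of cell-cycle genes as above, 2 members were higher and 2 lower, and the log2 ratios of Egfr, Erbb4, Fgfr2 and Fgfr3 were all under 1.

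Genes that respond to the MAP kinase pathway were mostly between the thresholds. Of 21 compared, 0 were higher and 2 (9.52%) lower, Ccnd2 and Klf10, near the 6.74% of all genes that were lower. Ccnd2 (chromosome 6 from 127125162 to 127152193), whose product drives entry into S phase, was at 11.2 and 2.35, and Klf10, an early response transcription factor gene, at 0.525 and 0.0869. The feedback inhibitor gene Spry2 was at 0.943 and 1.19, and the ETS factor genes Etv4 and Etv5 at 0.963 and 2.12 and then at 1.37 and 2.24. Spry4, Dusp6 and Ccnd1 were not analysed here.

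Of 27 genes linked to FOXO factors and to growth factor starvation, 15 (55.6%) were higher and 1 lower, with a median log2 ratio of 1.05, while 10.7% of all genes were higher. Against limited day 0 cells 10 were higher, and the median was 0.79. Txnip (ENSMUSG00000038393, chromosome 3 from 96557957 to 96561883), which encodes an inhibitor of thioredoxin and of glucose uptake, was at 0.168 at day 0 and 3.20 at day 2, a 19.1-fold rise. It had a UMI in 4.55% of thinned cells at day 0 (95% interval 3.95 to 5.22) and in 58.9% at day 2 (57.5 to 60.3). Fbxo32, a ubiquitin ligase gene known for muscle atrophy, was at 0.0531 and 0.560, and Pink1, a kinase gene of mitochondrial quality control, at 0.666 and 2.93. Irs2, an adaptor gene of the insulin receptor, was at 0.590 and 0.694, under the threshold. The lower member, Fkbp5, a glucocorticoid-induced chaperone gene, was at 0.132 and 0.0272.

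Cholesterol synthesis was the metabolic group that moved most. Of 22 genes compared, 16 (72.7%) were lower and 0 higher, with a median log2 ratio of -1.61, while 6.74% of all genes were lower. Idi1 (ENSMUSG00000058258, chromosome 13 from 8885501 to 8892451), the isomerase gene of isoprenoid synthesis, was at 0.924 at day 0 and 0.0811 at day 2. It had a UMI in 22.9% of thinned cells at day 0 and in 2.04% at day 2. Stard4, a sterol carrier gene, was at 0.195 and 0.0246. Hmgcs1, the synthase gene of the mevalonate pathway, was at 2.80 at day 0 and 0.744 at day 2. With day 0 cells limited by the share of cell-cycle genes, 13 of the 22 were lower and the median was -1.15.

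These genes are known targets of SREBP transcription factors, which bind sterol regulatory elements next to CCAAT boxes. The element TCACNCCAC was in 1 of 17 promoters of the compared members, that of Hmgcs1, and in 1.04% of all promoters of genes compared. CCAAT was in 15 of 17 (88.2%) and in 38% of all, but also in 68% of S phase, 63.3% of mitosis and 60% of FOXO-linked promoters. The promoters of Hmgcs1 (chr13:119690101-119690400, plus strand), with the element in capitals upstream of the start site, and of Idi1 (chr13:8885356-8885655, plus strand), with 2 CCAAT boxes in capitals, both on the minus strand and so read as ATTGG, are shown because they are the steepest falling members with each motif.
Hmgcs1: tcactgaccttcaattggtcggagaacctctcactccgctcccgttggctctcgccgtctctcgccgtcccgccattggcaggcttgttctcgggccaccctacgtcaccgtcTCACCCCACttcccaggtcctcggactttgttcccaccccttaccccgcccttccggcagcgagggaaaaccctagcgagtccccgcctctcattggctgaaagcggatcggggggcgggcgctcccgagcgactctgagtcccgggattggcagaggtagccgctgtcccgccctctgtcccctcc
Idi1: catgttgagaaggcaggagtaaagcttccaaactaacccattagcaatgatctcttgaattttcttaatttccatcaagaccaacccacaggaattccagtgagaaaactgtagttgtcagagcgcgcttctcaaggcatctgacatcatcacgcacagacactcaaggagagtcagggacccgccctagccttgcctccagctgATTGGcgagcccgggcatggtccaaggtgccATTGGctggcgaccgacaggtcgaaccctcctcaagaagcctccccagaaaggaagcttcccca

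The log2 ratio was -1.91 for Hmgcs1 and -3.51 for Idi1.

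Genes of lipid export and breakdown did not share this pattern. Of 22 genes of lipid efflux, storage and fatty acid oxidation, 3 were higher and 0 lower, which is 13.6% against 10.7% of all genes. Their median log2 ratio was 0.64, and 0.45 against limited day 0 cells. The thinned share of cells rose by at least 10 points for 8 of the 22, against 544 of the 7502 genes compared. Abca1, the pump that loads cholesterol onto apolipoproteins, was at 0.620 and 3.13, with a UMI in 16.3% and then 62.8% of thinned cells. Acaa2, a mitochondrial thiolase gene, was at 0.768 and 2.55, and Apoe was the third. Of 11 genes of fatty acid synthesis, the elongase gene Elovl6 was lower, at 0.713 and 0.164, and the desaturase gene Fads3 higher, at 0.0591 and 0.134.

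**Figure D2:**
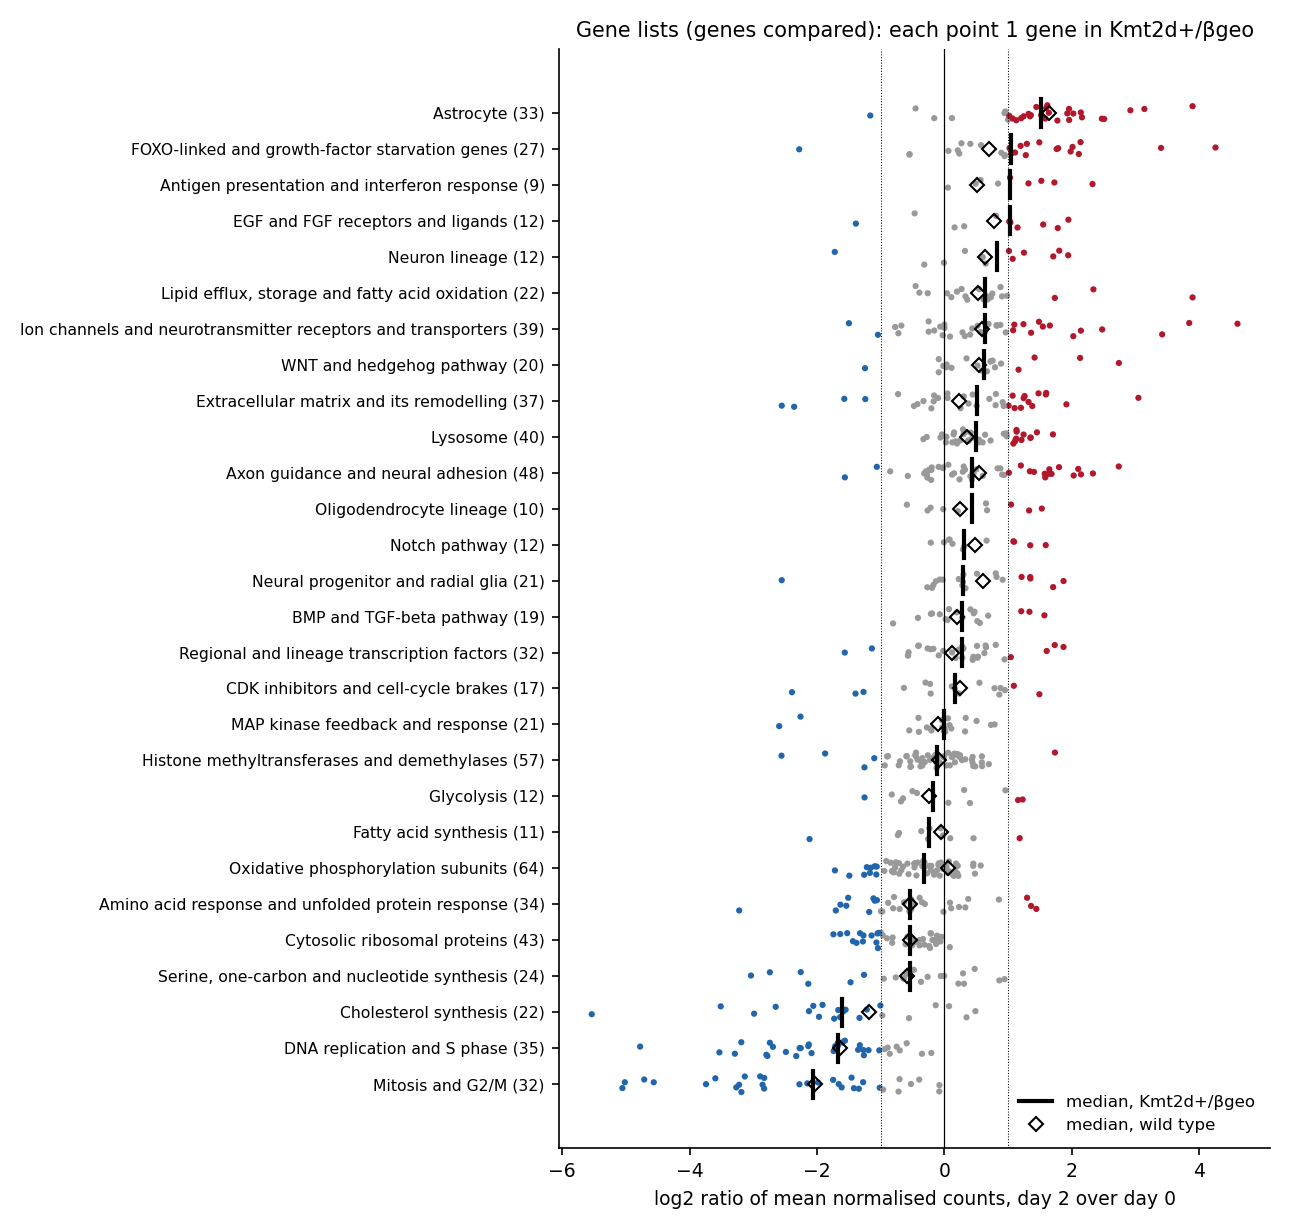
Log2 ratio of mean normalised counts, day 2 over day 0, for the genes of each list with at least 9 genes compared (number in brackets). Points are genes in Kmt2d+/βgeo, red at 1 or more and blue at -1 or less, bars are list medians in Kmt2d+/βgeo and diamonds are list medians in wild type. The astrocyte list has the highest median, 1.52, and the mitosis list the lowest, -2.07.

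The astrocyte list had the highest median of the lists with at least 9 genes compared. Of 33 genes, 26 (78.8%) were higher and 1 was lower, with a median log2 ratio of 1.52, while 10.7% of all genes were higher. There were 20 higher against limited day 0 cells. Apoe (ENSMUSG00000002985, chromosome 7 from 19696109 to 19699188) rose 14.9-fold in mean level. Cst3 (chromosome 2 from 148871722 to 148875692), which encodes the protease inhibitor cystatin C, was at 12.2 at day 0 and 107.6 at day 2. Together Apoe and Cst3 took 0.303% of the normalised counts of the matrix genes at day 0 and 3.64% at day 2. Slc39a12, a zinc transporter gene, was at 0.0203 and 0.153, and Itm2b, a membrane protein gene, at 8.38 and 31.9. The glutamate transporter gene Slc1a2 was at 0.498 and 2.19, and Slc1a3, a glutamate transporter gene of radial glia as well, at 7.97 and 14.1, under the threshold. Glul, the gene of glutamine synthetase, was at 1.23 and 3.14. Gja1, the gap junction gene, was at 0.162 and 0.323, a log2 ratio of 0.998 that fell just short. The lower member was Igfbp2, which binds insulin-like growth factors, at 21.6 and 9.65, whose log2 ratio from pooled UMIs was -0.90, under the threshold in size.

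Of 21 progenitor genes, 5 (23.8%) were higher and 1 (4.76%) lower, against 10.7% and 6.74% of all genes, with a median log2 ratio of 0.30. Vim, the gene of the intermediate filament vimentin, was at 35.4 and 81.8, with a log2 ratio of 0.97 against limited day 0 cells, under the threshold. Hopx, a homeodomain gene of quiescent neural stem cells, was at 0.435 and 1.59. Fabp7 was at 34.6 and 43.5, Sox9 at 1.61 and 1.98 and Pax6 at 0.202 and 0.354, all between the thresholds. Tnc, the gene of the matrix protein tenascin C, was lower, at 2.25 and 0.384.

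Of 12 genes of the neuron lineage, 6 were higher and 1 lower, against 10.7% and 6.74% of all genes, with a median of 0.83, and 3 were higher against limited day 0 cells. Mapt, the tau gene, was at 0.417 and 1.45, and Gad1, the gene of a GABA-synthesising enzyme, at 0.0418 and 0.161. Map2 was at 2.86 and 2.85, and Gap43, a growth cone gene, was lower, at 0.373 and 0.113. Rbfox3, the gene of the neuronal nuclear antigen NeuN, stayed too low to be compared, at 0.00536 and 0.0356, with a UMI in 0.0929% and 1.18% of thinned cells. Dcx and Tubb3 were not analysed here. Of 10 oligodendrocyte lineage genes, 3 were higher and 0 lower, against 10.7% and 6.74% of all genes, and 1 was higher against limited day 0 cells. Cnp, a myelin enzyme gene, was at 0.847 and 2.13, and its log2 ratio was 0.99 against limited day 0 cells. Olig2 was at 5.53 and 4.76, and its UMIs were present in 71.1% of thinned cells at day 0 and in 55.5% at day 2.

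The day 2 cells differed among themselves in these genes. In cells thinned to 3000 UMIs, Apoe had a median of 2 UMIs at day 0, with quartiles of 1 and 4, and a median of 62 at day 2, with quartiles of 32 and 102. The 5th percentile at day 2 was 8 UMIs, above the 75th percentile at day 0. Day 0 had a long upper tail, with 19 UMIs at the 95th percentile. Cst3 had a median of 3 UMIs at day 0 and 26 at day 2, and its quartiles went from 2 and 6 to 10 and 52. The variance over the mean was 33.4 and 39.2 for Apoe and 3.24 and 35.2 for Cst3 at day 0 and day 2. Fabp7 kept nearly the same median, 10 and 11 UMIs, while its quartiles spread from 7 and 16 to 5 and 21. For Fabp7 it was 5.05 and 13.3. The share of day 2 cells with more UMIs than the day 0 median was 99.2% for Apoe, 96.1% for Cst3, 95.3% for Itm2b and 51.1% for Fabp7.

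The levels of these genes at day 2 differed with the number of Olig2 UMIs in a cell. The 2181 day 2 cells with 0 Olig2 UMIs had a mean of 87.5 Apoe UMIs, the 969 cells with 1 had 78.6, the 570 cells with 2 had 62.3, and the 1180 cells with 3 or more had 44.9. Over the same 4 classes, Cst3 had means of 48.1, 39.6, 30.4 and 18.1 UMIs, and Gmpr 4.32, 3.51, 2.74 and 1.43. Fabp7 had a mean of 19.0 UMIs without Olig2 and 8.89 with 3 or more. Ptma, a gene of chromatin opening that is high in dividing cells, ran the other way, with 5.26, 6.09, 7.21 and 8.64 UMIs. At day 0 the classes did not differ in this manner. Apoe had means of 5.70, 4.87, 4.15 and 4.56 UMIs there, Cst3 4.26, 3.99, 4.26 and 4.43, and Ptma 9.14, 9.08, 8.99 and 8.96.

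The same can be put as a correlation across cells, on the square root of thinned counts. Olig2 had r = -0.36 with Apoe, -0.41 with Cst3 and -0.50 with Mt3, a metallothionein gene of astrocytes, over the 4900 day 2 cells. Over the 4305 day 0 cells these were 0.01, 0.04 and -0.02. In the wild-type libraries, which hold other cells, they were -0.43, -0.46 and -0.54 at day 2 and -0.04, -0.03 and -0.11 at day 0. The cells of 1 library share a culture and a depth of 3000 UMIs, and a rise of 1 gene takes UMIs from the others, so these values are descriptions. Top2a did not follow Olig2 at day 2, with means between 0.0303 and 0.065 UMIs in the 4 classes.

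**Figure D3:**
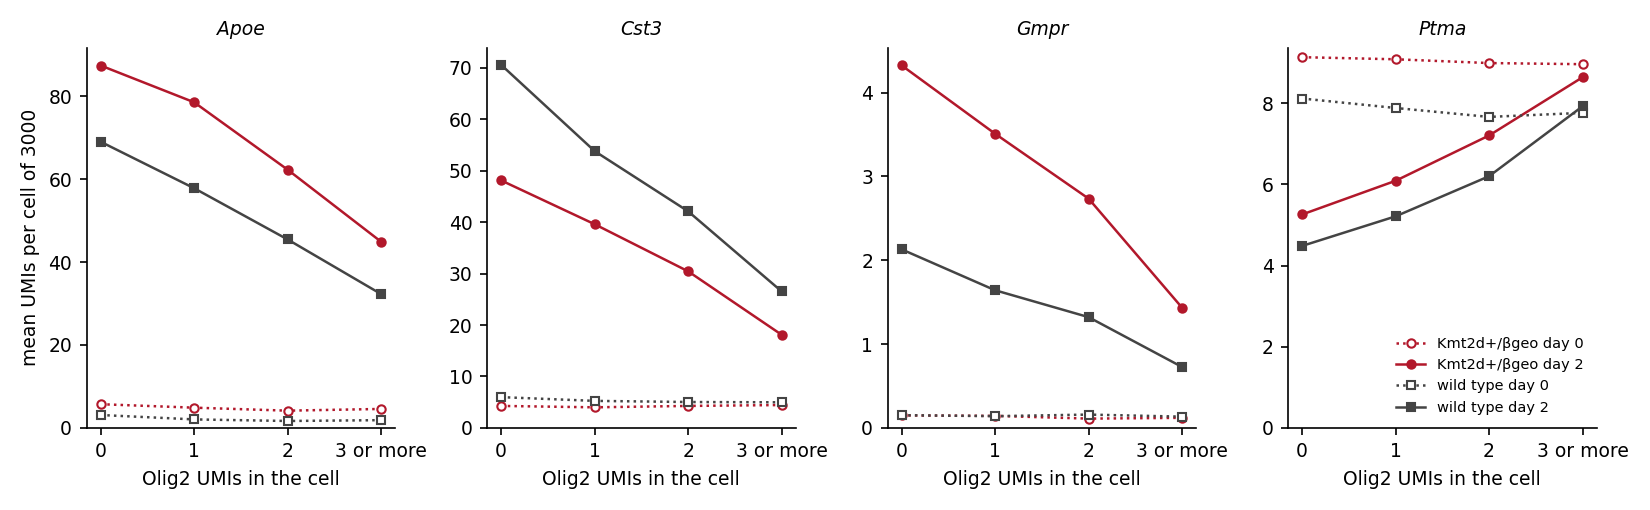
Mean UMIs per cell (of 3000) of Apoe, Cst3, Gmpr and Ptma in cells with 0, 1, 2 and 3 or more Olig2 UMIs, for the day 0 (dotted) and day 2 (solid) libraries of both genotypes. At day 2 the Apoe mean of Kmt2d+/βgeo cells goes from 87.5 to 44.9 across the classes, while at day 0 it stays between 4.15 and 5.70.

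The genes with the 12 highest ratios among those with a mean of at least 0.5 in either library were Ly6h, Gmpr, Cav1, Txnip, Apoe, Gabrb1, Ackr3, Kcnk2, Fbxo32, Pdgfrl, Shisa9 and Cst3. Ly6h, which encodes a membrane-anchored protein of the Ly6 family, was at 0.0142 at day 0 and 0.504 at day 2 (log2 ratio 5.15, 95% interval from pooled UMIs 4.91 to 5.57). Gmpr (ENSMUSG00000000253, chromosome 13 from 45507444 to 45553800) was at 0.375 and 9.46, a 25.2-fold rise. Cav1, the gene of the caveolar coat protein caveolin 1, was at 0.0414 and 0.914. Gabrb1, a subunit of the GABA-A receptor, was at 0.0472 and 0.676, and Kcnk2, a potassium leak channel gene, at 0.101 and 1.07. Ackr3, a scavenging receptor gene for the chemokine CXCL12, was at 0.0912 and 1.09, Pdgfrl, a gene with likeness to the PDGF receptor, at 0.0552 and 0.523, and Shisa9, which modulates AMPA receptors, at 0.0905 and 0.837. All 12 were 2-fold or more higher in the wild-type pair as well.

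The 12 lowest ratios under the same rule were those of Knl1, Top2a, Kif11, Nusap1, Idi1, Fbn2, Atad2, Tacc3, Lmnb1, Hirip3, Ckap2 and Smc2. All but Idi1 and Fbn2 encode proteins of chromosomes, the spindle or the nucleus. Fbn2, the gene of the microfibril protein fibrillin 2, was at 1.01 and 0.096, with a UMI in 27.8% of thinned cells at day 0 and 3.10% at day 2. In the comparison with limited day 0 cells its log2 ratio was -3.66, that of Idi1 -2.80, that of Top2a -1.28 and that of Knl1 -1.02. The others were under the threshold in size: Hirip3 -0.94, Lmnb1 -0.76, Kif11 -0.72, Nusap1 -0.67, Atad2 -0.26, Ckap2 -0.25, Tacc3 -0.14 and Smc2 0.02. Top2a, Knl1, Kif11, Nusap1, Atad2, Ckap2, Tacc3 and Smc2 are among the genes used to limit the cells. Akap12, a scaffold gene for protein kinases A and C, was also far lower, at 4.32 and 0.631.

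Levels in the later Kmt2d+/βgeo library of day 8, which was shallower, with a median of 7926 UMIs per cell, are set beside those of day 2 with no comparison. Gmpr was at 1.57 at day 8 and Cav1 at 0.0961, after 9.46 and 0.914 at day 2. Hmgcs1 was at 4.33 at day 8, after 0.744, and Idi1 at 0.514, after 0.0811. Txnip was at 2.40 and Fbxo32 at 0.887. Top2a and Ccnd2 were at 0.055 and 1.18.

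**Figure D4:**
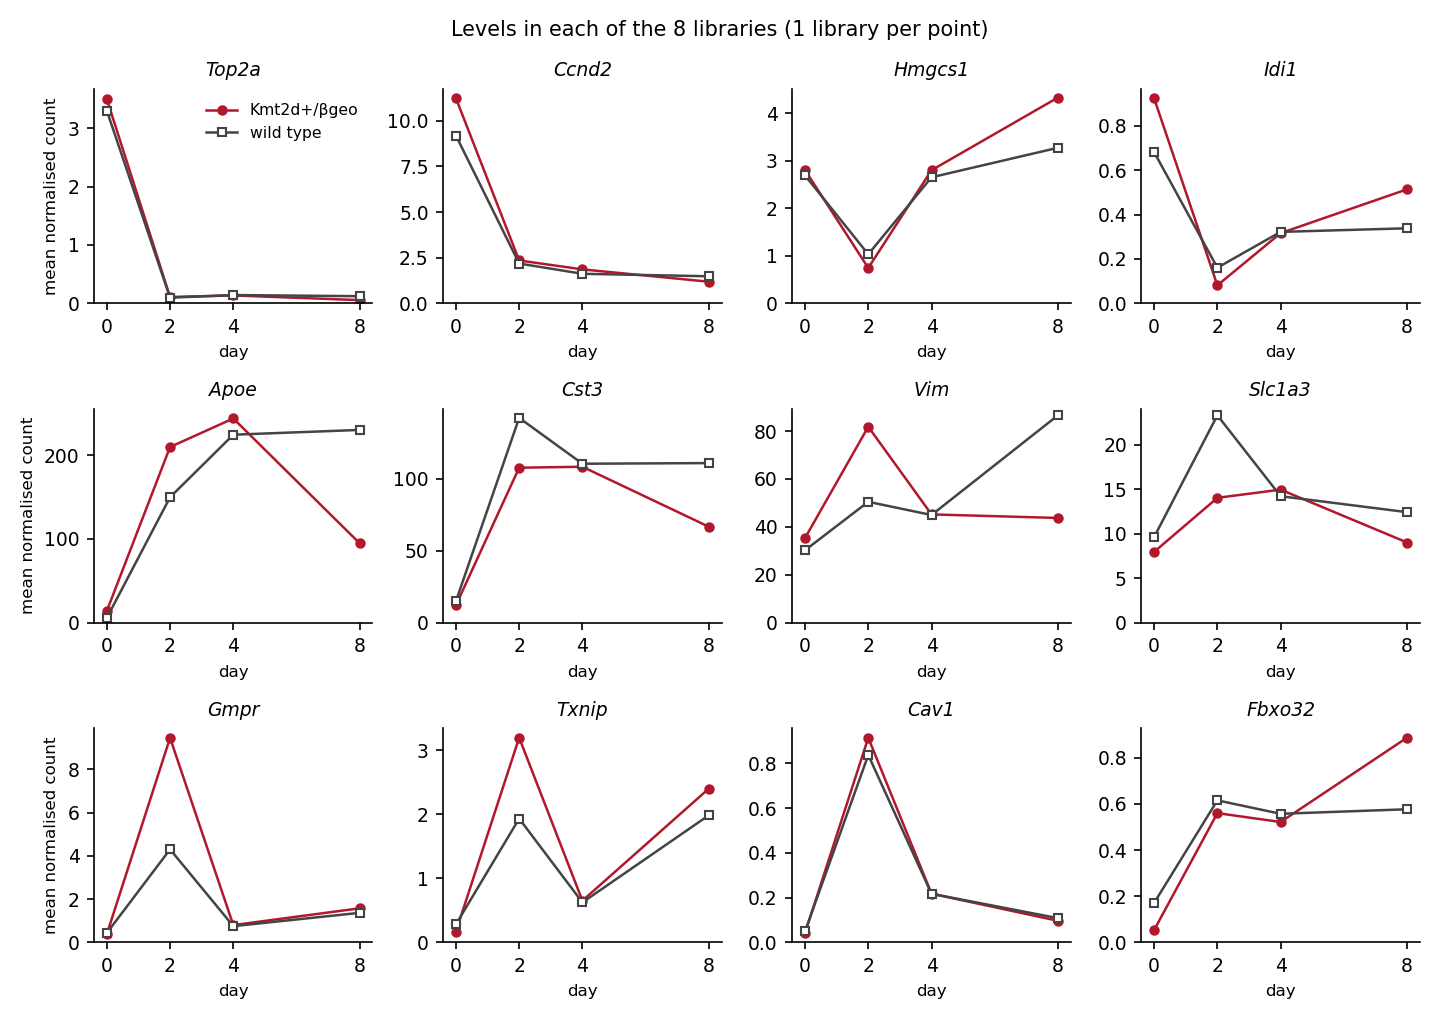
Mean normalised count per cell of 12 genes on days 0, 2, 4 and 8 (horizontal axis, days after growth factors were removed) in Kmt2d+/βgeo (filled circles) and wild type (open squares), 1 library per point and no error bars. Among days 0, 2 and 8, Gmpr and Cav1 are highest and Hmgcs1 and Idi1 lowest at day 2 in both genotypes, and the day 4 libraries of the genotypes, of which the Kmt2d+/βgeo one is in doubt, nearly coincide.

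Genes of the lysosome were higher at day 2 or between the thresholds. Of 40 compared, 12 (30.0%) were higher and 0 lower, with a median log2 ratio of 0.49, while 10.7% of all genes were higher. Against limited day 0 cells 5 of the 40 were higher, where 530 of 7386 genes were. Ctsl, the gene of the protease cathepsin L, was at 2.93 at day 0 and 9.53 at day 2, Psap, the precursor gene of the saposins, at 4.44 and 12.1, and Lamp2, a lysosomal membrane protein gene, at 0.835 and 2.13. Genes of protein folding in the endoplasmic reticulum and of amino acid supply were lower in 9 of 34 cases (26.5%) and higher in 3 (8.82%), with a median of -0.54, while 6.74% of all genes were lower. Against limited day 0 cells 6 were lower and 1 higher, and Slc7a11 and Herpud1 were under the threshold. Slc7a1, a transporter gene for cationic amino acids, was at 0.246 and 0.0264, the calcium-binding chaperone gene Calr at 7.48 and 2.30, and the alanyl-tRNA synthetase gene Aars at 1.31 and 0.422. The higher members were Slc7a11, a cystine transporter gene, Ddit3, which encodes the stress factor CHOP, at 0.152 and 0.389, and Herpud1 at 0.222 and 0.545.

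Of 24 genes of serine, one-carbon and nucleotide synthesis, 6 (25%) were lower and 0 higher. Mthfd2, a mitochondrial folate enzyme gene, was at 0.360 and 0.0439. Tyms and Rrm1, which make DNA precursors and are on the S phase list too, were at 0.779 and 1.03 at day 0 and at 0.117 and 0.216 at day 2. The median of the 24 genes was -0.54, and -0.11 against limited day 0 cells, where 1 member was lower. In glycolysis, 2 of 12 genes (16.7%) were higher and 1 (8.33%) lower, near the 10.7% and 6.74% of all genes. The higher ones were the phosphofructokinase genes Pfkp and Pfkm, of which Pfkm was at 0.77 on the log2 scale against limited day 0 cells. Ldha, the gene of lactate dehydrogenase A, was lower, at 7.29 and 3.06.

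In the list of matrix genes, 13 of 37 (35.1%) were higher and 4 lower, against 10.7% and 6.74% of all genes. Against limited day 0 cells 4 were higher and 4 lower. Ccn1, which encodes a matrix protein that binds integrins, was at 0.0985 and 0.812, Nid2, a basement membrane gene, at 0.105 and 0.394, and Itgb5, an integrin gene, at 0.129 and 0.391. Adam12, a metalloprotease gene, was at 1.13 and 0.220, and the proteoglycan gene Vcan at 0.787 and 0.265. Of 48 genes of axon guidance and adhesion, 15 (31.2%) were higher and 2 lower. Nfasc, the neurofascin gene, was at 0.152 and 1.01, and Ephb1, an ephrin receptor gene, at 0.101 and 0.508. The adhesion gene Opcml was at 0.353 and 0.119. Of 39 genes of ion channels, receptors and transporters, 13 (33.3%) were higher and 2 lower, with the calcium channel subunit gene Cacnb4, at 0.00791 and 0.191, at the top and the AMPA receptor gene Gria3, at 1.24 and 0.440, at the bottom.

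Signalling lists were set beside the 10.7% higher and 6.74% lower among all genes. In the Notch pathway, 4 of 12 (33.3%) were higher and 0 lower, and 2 were higher against limited day 0 cells, with the receptor gene Notch2 at 0.256 and 0.651 and the ligand gene Dner at 0.0933 and 0.281. In the BMP and TGF-beta pathway, 3 of 19 (15.8%) were higher and 0 lower, the receptor genes Bmpr1b and Acvr2b and the ligand gene Tgfb2, which was at 0.385 and 0.887 and had a log2 ratio of 0.76 against limited day 0 cells, under the threshold. In the WNT and hedgehog list, 4 of 20 (20%) were higher and 1 lower. The ligand gene Wnt7b was at 0.122 and 0.816, and the hedgehog co-receptor genes Boc and Cdon went opposite ways, at 0.0675 and 0.108 at day 0 and at 0.295 and 0.0455 at day 2. Of 9 genes of antigen presentation and the interferon response, 5 were higher and 0 lower, among them Tapbp, which loads peptides onto class I molecules, at 0.244 and 0.808, and B2m, the light chain of class I molecules, at 1.14 and 2.33. With limited day 0 cells 4 of the list were higher, and B2m, at 0.85 on the log2 scale, was not.

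Among 32 regional and lineage transcription factor genes, 4 (12.5%) were higher and 2 (6.25%) lower, near the 10.7% and 6.74% of all genes. Meis1 was at 0.385 and 1.28 and Dbx2 at 0.797 and 2.42, while Pbx3 was at 0.239 and 0.0809 and Rfx4 at 2.45 and 1.11. The log2 ratio of Pbx3 was -0.73 against limited day 0 cells, under the threshold in size. Of 57 genes of histone methyltransferases, demethylases and their partners, the family to which Kmt2d belongs, 1 was higher and 4 (7.02%) lower, with a median of -0.12, and the share of lower genes was near the 6.74% of all genes. The catalytic genes of Polycomb repressive complex 2 went opposite ways, Ezh2 from 1.59 to 0.434 and Ezh1 from 0.052 to 0.173. Against limited day 0 cells 1 gene of this list was lower, and the log2 ratios of Ezh2 and Kmt5a were -0.54 and -0.84. Suv39h2, which methylates histone H3 lysine 9, was at 0.167 and 0.0284, and Kmt5a, which methylates histone H4 lysine 20, at 1.67 and 0.698.

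Of 43 genes of cytosolic ribosomal proteins, 13 (30.2%) were lower and 0 higher, with a median log2 ratio of -0.54, while 6.74% of all genes were lower. Their summed level was 1632 normalised counts at day 0 and 1143 at day 2. Rps29 was at 18.9 and 5.66, Rpl38 at 15.8 and 5.08 and Rps15 at 20.8 and 7.24. These genes have many processed pseudogenes, between which counting can split reads, so values of single members are uncertain. Of 64 genes of oxidative phosphorylation, 9 (14.1%) were lower and 0 higher, with a median of -0.33, against 0.06 in wild type. Atp5md, a subunit gene of ATP synthase, was at 4.84 and 1.47, and Atp5k, another, at 2.20 and 0.783. The 21 members whose longest transcript has at most 700 nucleotides had a median of -0.58, and the 43 longer ones -0.16. Among ribosomal protein genes the 14 short members had a median of -1.21, with 10 lower, and the 29 longer ones -0.44, with 3 lower. In wild type the median of the whole ribosomal list was -0.54. The short ribosomal members had a median of -0.41 there, with 1 lower, and the longer ones -0.55, with 5 lower.

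Genes with short transcripts had lower ratios than the rest. The 21 genes compared whose longest transcript has at most 500 nucleotides had a median log2 ratio of -0.79, the 70 genes from there to 700 nucleotides -0.36, and the longer classes lay between -0.0047 and 0.08. In wild type the same classes had medians of 0.05 and -0.02. Between genotypes, Kmt2d+/βgeo over wild type, the shortest class had a median log2 ratio of 0.22 at day 0 and -0.62 at day 2. The part of this in the changes of ribosomal and oxidative phosphorylation genes was not tested.

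The wild-type day 2 and day 0 libraries hold other cells, and their changes were set beside those in Kmt2d+/βgeo. In wild type 602 of 7451 genes compared (8.08%) were higher and 414 (5.56%) lower. Of the 723 genes higher in Kmt2d+/βgeo that were compared in wild type, 476 (65.8%) were higher there, and they were 79.1% of the genes higher in wild type. Of the 489 lower genes, 324 (66.3%) were lower there, and they were 78.3% of those lower in wild type. There were 0 genes called in opposite directions. Across the 3234 genes with a mean of at least 0.5 in either library of each pair, Pearson's r between the log2 ratios was 0.92 and Spearman's rho 0.91, which are descriptions across genes that are not independent. The median size of the difference between the ratios was 0.16, and 0.29 over those called in Kmt2d+/βgeo.

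Of these 3234 genes, 15 (0.464%) had a log2 ratio at least 1 above that in wild type and 37 (1.14%) at least 1 below it. With 1 library per genotype and day, no test of these differences could be run. The 5 furthest above were Fbxo32, Igfbp5, Txnip, Ntrk2 and Mtss1. Igfbp5, which binds insulin-like growth factors, was at 0.299 and 1.07 in Kmt2d+/βgeo and at 0.567 and 0.703 in wild type, and Mtss1, an actin regulator gene, at 1.32 and 3.33 against 1.961 and 1.922. Fbxo32 was at 0.0531 and 0.560 against 0.171 and 0.616, so that the day 0 levels differed more than those of day 2. The same held for Ntrk2, at 0.551 and 2.12 against 1.48 and 2.19. The 5 furthest below were Atp5k, Ndufb1-ps, Pet100, Rps29 and Rpl38. Of the 37 genes, 15 were on the ribosomal or oxidative phosphorylation lists, which held 107 of the 3234 genes. The longest transcript had at most 700 nucleotides in 11 of the 37, which held for 72 (2.23%) of the 3234. In the cholesterol synthesis list the median was -1.61 in Kmt2d+/βgeo and -1.19 in wild type, and in the astrocyte list 1.52 and 1.64. S phase medians were -1.67 and -1.63, and mitosis medians -2.07 and -2.03. The oxidative phosphorylation medians lay on either side of 0.

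**Figure D5:**
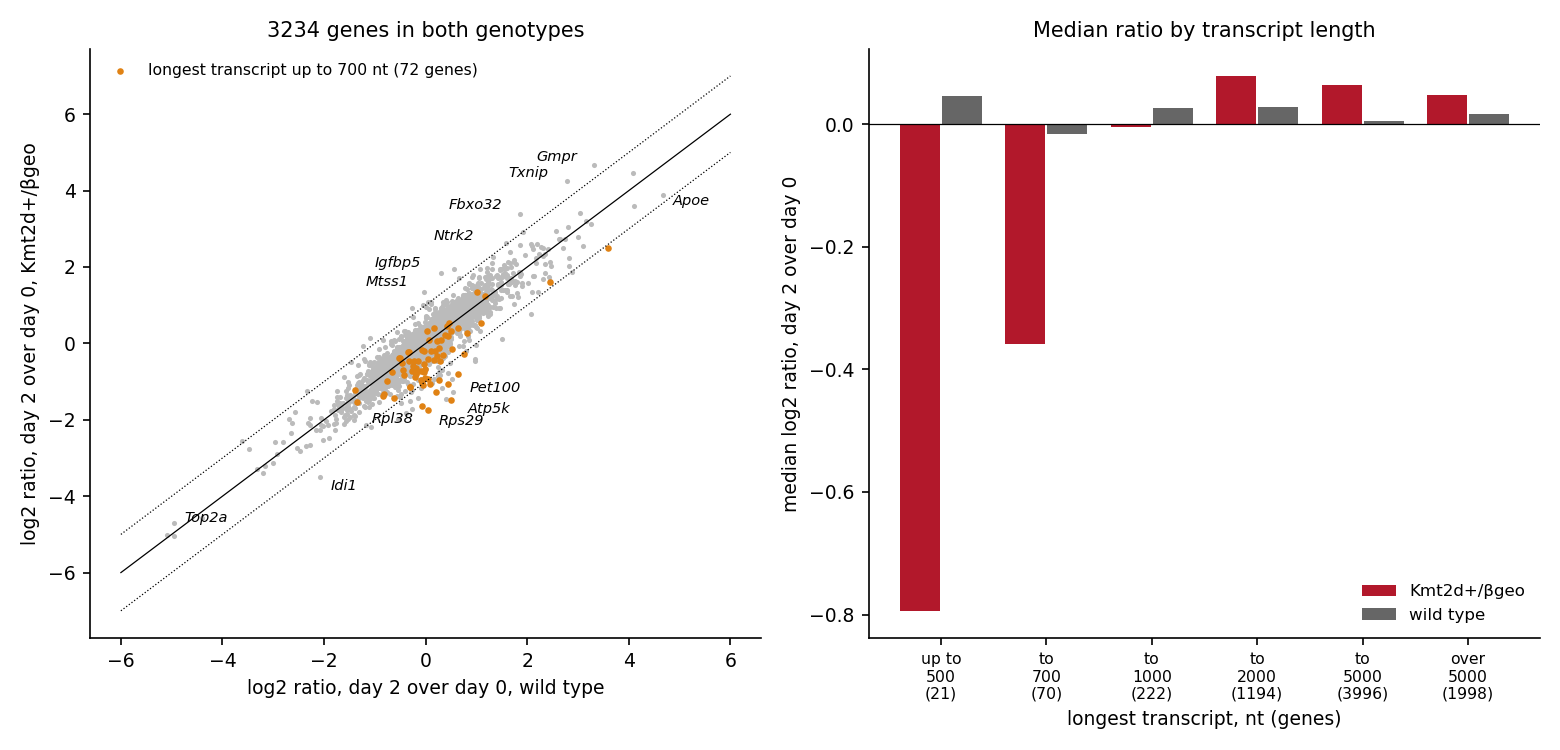
Left, log2 ratio of day 2 over day 0 in wild type (horizontal) and Kmt2d+/βgeo (vertical) for 3234 genes, with a solid line at equality and dotted lines at a difference of 1, and the 72 genes whose longest transcript has at most 700 nucleotides in orange. Right, median log2 ratio by length of the longest transcript in both genotypes (number of genes in brackets), which is -0.79 in Kmt2d+/βgeo and 0.05 in wild type for the shortest class.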

How the data were processed

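Single-cell 3′ RNA sequencing of cultured hippocampal NPCs was analysed from the files deposited by the authors. Per the study's methods and processing notes, the authors counted spliced molecules with alevin (Salmon 1.3.0) against GRCm38, removed outlier cells and likely doublets before deposit, left out mitochondrial and rarely seen genes, and scaled each cell by its library size. The deposited matrix holds the resulting log2 values, and a deposited cell table gives the authors' estimated count of UMIs per cell. The matrix genes hold only part of that count, with a median of 11230 against 23219 at day 0. Normalised counts sum to 8707.1 in every cell over the 9140 matrix genes. Percentages of normalised counts are therefore of these genes alone. No cells were removed and none were clustered here.

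Values were turned back to normalised counts (2 to the power of the value, minus 1). The worth of 1 UMI in a cell was taken as its commonest value, and 86.7% of the values above 0 then came out whole to within 0.01. These estimated UMIs were rounded for sums and for thinning to 3000 per cell without replacement. Each group is 1 library, so no test was run. Shares have 95% Clopper-Pearson intervals, differences of shares Newcombe intervals, and ratios of pooled UMIs exact conditional intervals, whose centre can lie off the ratio of means because deep cells weigh more. Transcript lengths came from GENCODE M21. The longest transcript of a gene was its longest protein-coding one, or the longest of any type where it had none. The calling, thinning and interval functions were tested on simulated data. Alternatives changed the scaling, cell weights, scale, minimum mean, pseudocount, depth and the day 0 cells used.

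The genes and lists were chosen with earlier results of these data known. Named genes were the 12 highest and 12 lowest ratios with a mean of at least 0.5, the 6 largest rises and falls in mean, the 5 in share of cells, the 5 furthest from wild type in each direction, up to 3 per list and direction, and a fixed list. Kmt2d+/βgeo genes outside this rule (Mt3, Ptma, Hmgb1) were named after their values were seen, and the transcript length and Olig2 classes were also chosen then. No columns of per-sample values were set aside. Python 3.11.15, numpy 2.4.6, scipy 1.17.1 and pandas 2.3.3 were used.
A few genes and 1 list with a single gene compared are not reported here.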

Additional observations from a re-analysis of the deposited data

Results flagged for a closer look

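Named genes whose mean moved by at least 0.3 on the log2 scale from day 0 to day 2, in opposite directions in Kmt2d+/βgeo and in wild type, were set apart. With 1 library per group, none of these differences was tested.
Tmsb4x, the gene of the actin-binding peptide thymosin beta 4, had a log2 ratio of -0.34 in Kmt2d+/βgeo and 0.31 in wild type, a difference of -0.65, and its levels at day 0 and day 2 were 122.4 and 96.4 in Kmt2d+/βgeo and 69.7 and 86.4 in wild type.
Sema3c, a secreted guidance cue gene of low level, had 2.14 and -0.31, a difference of 2.45.
Atp5k, a short subunit gene of ATP synthase, had -1.49 and 0.51, a difference of -1.999.
Ndufb1-ps, named as a pseudogene of a complex I subunit but annotated as protein-coding, had -1.47 and 0.41, a difference of -1.88.
Pet100, a gene of complex IV assembly, had -1.28 and 0.53, a difference of -1.82.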

How the results depend on the processing

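No paired analysis was possible within this genotype because each genotype and day is 1 library, and for the same reason no library could be left out. Depth limits the values of low genes, which rest on few molecules. The causes of the shifts given here were not tested.
With the difference of mean log2 values, 47 genes were higher and 53 lower, and the list medians shrank to -0.32 for S phase, -0.43 for mitosis, 0.21 for EGF and FGF receptors, 0.25 for FOXO-linked genes, 0.76 for astrocyte, 0.098 for neuron, 0.12 for oligodendrocyte, 0.058 for WNT and hedgehog, -0.26 for cholesterol synthesis, 0.14 for lipid efflux, -0.16 for serine and nucleotide synthesis, -0.155 for the unfolded protein response, 0.16 for lysosome, 0.13 for matrix, 0.066 for axon guidance, 0.088 for antigen presentation and 0.064 for ion channels.
With a minimum mean of 0.5, 347 genes were higher and 276 lower, and the medians were -1.66 for mitosis and -0.79 for the unfolded protein response. With a pseudocount of 0.1, 390 were higher and 274 lower, and the medians were -1.14 for S phase, -1.56 for mitosis, 0.75 for EGF and FGF receptors, 0.52 for neuron, -1.19 for cholesterol synthesis and 0.68 for antigen presentation.
With day 0 cells limited by the share of cell-cycle genes, 530 were higher and 294 lower, and the medians were 0.72 for EGF and FGF receptors, 1.15 for astrocyte, 0.17 for oligodendrocyte, -1.15 for cholesterol synthesis, 0.25 for matrix, 0.17 for axon guidance and 0.31 for ion channels. Without its members on the cell-cycle lists, the serine and nucleotide list had a median of 0.011 in this setting, and with all 24 of its genes -0.11, and Smc2 and Smc4, which are among the genes used to limit the cells, turned to 0.023 and 0.46.
For shares of cells, 286 genes rose and 342 fell after thinning to 1500 UMIs, and 2487 fell without thinning, where day 0 cells are the deeper. Of 162 named genes, 162 stayed within 0.25 of their log2 ratio after centring, 154 after thinning, 150 with pooled UMIs, 142 with no minimum and a pseudocount of 0.01, 78 with a pseudocount of 0.1, 68 (2 reversed) with limited day 0 cells and 27 with mean log2 values. Genes called in the report whose ratio was under 1 in size with a pseudocount of 0.1 were Rbl1, Btg3, Cables1, Rb1, Fgf1, Fgfr2, Fgfr3, Fkbp5, Gad1, Dner, Bmpr1b, Acvr2b, Cdon, Fads3, Pfkp, Pfkm, Slc7a11, Ddit3, Sema3c, Ezh1, Pbx3 and B2m. After thinning they were Rb1 and Fgfr2, and with no minimum and a pseudocount of 0.01 Fgfr2 and Fgfr3.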
